A study of Mus musculus with 12 samples.

Results

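To resolve the early response of lung endothelium to metastasis with more arrays than a single week provides, ECs of weeks 1 and 2 after cancer cell injection were taken as 1 group of 6 arrays and compared with ECs of healthy lungs (control, 3 arrays). These are 9 of the 12 arrays of the study, and the other 3 come from week 3. All animals were NSG mice, an immunodeficient strain that lacks mature lymphocytes, aged 6 to 8 weeks at injection. The injected groups received MDA-MB-231-LM2 cells, a human breast cancer line selected for metastasis to the lung, through the tail vein, and the controls were age-matched mice without cancer cells. Whether controls received a vehicle injection is not given in the sources used here. ECs were sorted from whole lungs as CD31+ cells, and the gates removed GFP+ cancer cells, CD45+ and CD11b+ leukocytes, EpCAM+ epithelium and CD140a+ or CD140b+ stromal cells. The ECs came from whole lungs and so from sites near to and far from metastases. The labels name each array a biological replicate of its group, but whether an array is 1 mouse or a pool is not given in the sources used here. RNA was amplified from 500 pg and hybridized to Affymetrix mouse genome arrays, and the values are log2 signals of 1 probe set each after RMA (robust multiarray average). Among probe sets with 1 gene symbol, the brightest on average in all 12 arrays stood for its gene, which gave 18193 genes. In the following, "early" means the 6 arrays of weeks 1 and 2, and a log2 fold change is early minus control.

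Pulmonary capillaries form most of the lung's vascular bed and are lined by ECs that exchange signals with epithelium, fibroblasts and passing leukocytes. Like most cells, ECs carry receptors for type I and type II interferons. Binding of interferon activates JAK kinases and STAT factors, which move to the nucleus and start transcription of interferon-stimulated genes from short promoter elements. The products of these genes degrade or bind viral RNA, block viral release, load peptides onto MHC molecules, or tune the interferon response itself.

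Endothelial genes had high signals in all 9 arrays, and transcripts of other cell types, given below, were measured in them as well. Pecam1, which encodes CD31, had log2 signals of 13.40, 13.46 and 13.50 in control, and from 13.43 to 13.53 (median 13.47) in early ECs. Of 22 pan-endothelial genes measured, 0 passed the limma test in either direction (3 had an unadjusted p below 0.05, all higher), and their median log2 fold change was 0.06. The mean log2 signal of this list was 12.75 to 12.79 in control arrays and 12.81 to 12.87 in early arrays, which did not overlap. Over 9 arrays, the first principal component held 24.1% of the variance, with control arrays at -38.93 to -17.20 and early arrays at -0.85 to 53.78. Replicate 2 of week 1 stood farthest out at 53.78, and the next early array was at 16.12. Values of the RNA integrity controls overlapped between the groups. On the log2 scale, the 3′ control probe set exceeded the 5′ one by 0.52 ± 0.16 (SD, n = 3) in control and 0.41 ± 0.08 (SD, n = 6) in early ECs for Gapdh (exact permutation test, two-sided, p = 0.2857). For Actb it was 0.12 ± 0.08 (SD, n = 3) and 0.10 ± 0.05 (SD, n = 6; exact permutation test, two-sided, p = 0.5714). With 84 assignments of the arrays, the smallest two-sided p is 0.0238.

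In early ECs, 25 genes rose (0.137% of the genes tested) and 110 fell (0.605%) at an adjusted p below 0.05 by limma. Of the risen genes 15 were interferon-stimulated effectors, and of the fallen genes 24 were on any of the 44 lists, with 7 on the fibroblast list, 3 on the mural list and 2 on the list of basement membrane and matrix. Log2 fold changes of the risen genes ran from 0.58 to 1.82 with a median of 1.09, and those of the fallen genes from -1.88 to -0.58 with a median of -1.08, while the median over all genes was 0.04. All 6 early arrays lay on the same side of all 3 control arrays in each of the 135 genes. Over all genes, such a separation was seen upward in 610 (3.35%) and downward in 531 (2.92%). The 135 genes were called on these same arrays, so their separation is largely set by that selection and is no further support. With this separation in all 135 genes, their direction cannot change when any 1 array is left out. The call itself was lost by 126 of them in at least 1 of these 9 fits. Left out of the fit, control replicate 1 reduced the counts to 7 risen and 11 fallen genes, and control replicate 2 to 6 and 7. The fallen genes also dropped to 66 without replicate 1 of week 1, 60 without its replicate 2, and 64 and 66 without replicates 1 and 3 of week 2. The 9 genes that passed in each of these fits were Ifi27l2a, Oas1a, Oas2 and Slfn2 among the rises, and Dpep1, Crispld2, Acta2, Gsn and Ccn5 among the falls.

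**Figure D1:**
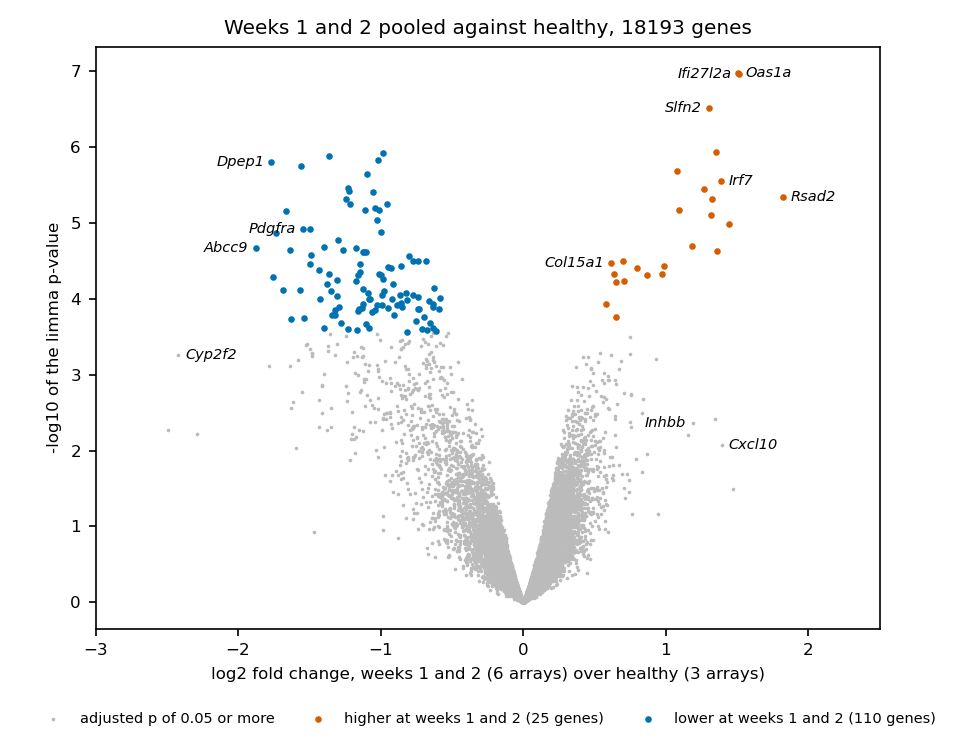
Each point is 1 of 18193 genes, with the log2 fold change of weeks 1 and 2 (6 arrays) over healthy (3 arrays) on the horizontal axis and -log10 of the limma p-value on the vertical axis. The 25 risen genes (orange) and 110 fallen genes (blue) are those past an adjusted p of 0.05, and Cyp2f2, Inhbb and Cxcl10 (grey) have large changes that did not pass.

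Promoter stretches of risen genes are shown because interferon response elements of the type GAAANNGAA are the textbook binding sites of the interferon-activated factors. RefSeq promoters (GRCm38.p6, 250 bases before to 50 after the start of transcription) were found for 14 of the 25 risen genes and searched on both strands, where the same element reads TTCNNTTTC. The match is in capitals, each stretch runs 5′ to 3′ on the strand of the gene, and matches can overlap.
Rsad2, chr12:26456533-26456601, minus strand: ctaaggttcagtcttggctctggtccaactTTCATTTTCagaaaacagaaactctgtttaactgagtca
Oas1a, chr5:120907501-120907575, minus strand: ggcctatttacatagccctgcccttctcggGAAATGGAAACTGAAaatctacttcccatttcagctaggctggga
Ifit1, chr19:34640750-34640843, plus strand: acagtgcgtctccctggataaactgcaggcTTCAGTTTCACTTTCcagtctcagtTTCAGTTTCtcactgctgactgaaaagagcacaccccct
Ifit3, chr19:34583344-34583465, plus strand: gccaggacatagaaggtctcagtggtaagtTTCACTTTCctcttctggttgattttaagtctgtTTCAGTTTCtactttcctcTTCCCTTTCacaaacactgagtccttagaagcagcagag
Igtp, chr11:58199492-58199560, plus strand: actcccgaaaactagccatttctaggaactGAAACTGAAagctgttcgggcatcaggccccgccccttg

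The element was found once each in Rsad2 and Igtp, at 2 overlapping places in Oas1a and at 3 places each in Ifit1 and Ifit3. In all, 5 of the 14 promoters (35.7%) held it, against 8.7% of the 14452 measured genes with a promoter and 4.82% of the 83 fallen genes with one. The palindromic letters TTCNNNGAA, the core of the STAT element, were in 5 of the 14 (35.7%), in 8.57% of the measured genes and in 12.05% of the fallen genes, and a match to them can overlap a match to the other element. These shares describe the letters in 300-base windows and were not tested.

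Interferon-stimulated effectors were mostly above control in early ECs, with 34 of 35 log2 fold changes above 0 and 26 genes in which all early arrays exceeded all controls (3.35% of all genes). Of the 35 measured, 15 rose and 0 fell (0.137% and 0.605% of all genes). The other 20 missed the threshold, and the median log2 fold change was 0.65. The mean log2 signal of the list was 9.84 to 9.91 in control and 10.43 to 10.72 in early arrays, which did not overlap. The largest rise was that of Rsad2 (viperin), which blocks viral replication by making a chain-terminating nucleotide. Its log2 signals were 9.51, 9.75 and 9.18 in control and 10.61 to 11.60 (median 11.40) in early ECs, and the lowest early array, replicate 1 of week 1, stood apart from the other 5 (11.26 to 11.60). The log2 fold change of Rsad2 was 1.82 (standard error, SE, 0.21, adjusted p = 0.00816 by limma), or 3.54-fold. Cmpk2, a mitochondrial nucleotide kinase encoded next to Rsad2, rose by 1.08 (SE 0.12, adjusted p = 0.00666 by limma).

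The 2-5 oligoadenylate synthetases detect double-stranded RNA and activate the nuclease RNase L. Oas1a had log2 signals of 9.29, 9.07 and 9.23 in control and of 10.53 to 11 (median 10.71) in early ECs, and its gap between the groups was wider than the spread of either. It rose 2.85-fold (log2 fold change of 1.51, SE 0.12, adjusted p = 0.00248 by limma), with Oas2 at 1.35 and Oasl1 at 0.87. The family as read here has 10 members, of which these 3 rose, and Oas3 had a log2 fold change of 0.12. All 3 measured Ifit genes, whose products bind foreign RNA at its 5′ end, rose, with log2 fold changes of 1.27 for Ifit1, 1.19 for Ifit2 and 1.09 for Ifit3. Ifit1 had log2 signals of 10.10, 10.18 and 10.26 in control and of 11.01 to 11.72 (median 11.50) in early ECs. These genes and others with close paralogs (Oas1a, Ifi202b, H2-Q5 and H2-D4) can share hybridization with their relatives, so the value belongs to the probe set.

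Ifi27l2a, a small mitochondrial protein induced by interferon, was as high above control as Oas1a, with log2 signals of 8.55, 8.13 and 8.36 in control and 9.74 to 10.06 (median 9.82) in early ECs (log2 fold change of 1.52, SE 0.12, adjusted p = 0.00248 by limma). Usp18, which removes ISG15 from proteins and shuts off the type I interferon receptor, rose by 1.44, and Zbp1, a sensor of Z-form nucleic acid that can start necroptosis, by 1.33. Mx1, a dynamin-like GTPase that traps viral particles, rose by 1.32 and Slfn2, a Schlafen gene needed for quiescence of immune cells, by 1.30. Slfn2 had the tightest early group of these genes, 10.33 to 10.61 (median 10.48), against 9.42, 8.94 and 9.15 in control. Isg20, an exonuclease, and Lgals3bp, a secreted glycoprotein, rose by 0.70 and 0.65. Among the 20 effectors that did not pass, Slfn8 (0.75), Oasl2 (0.75), Phf11d (0.65) and Xaf1 (0.58) had 6 early arrays above all controls, and Ifitm3 (-0.07) and Slfn5 (0.06) were close to 0. Without control replicate 1 or control replicate 2, 5 of the 35 passed the test.

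**Figure D2:**
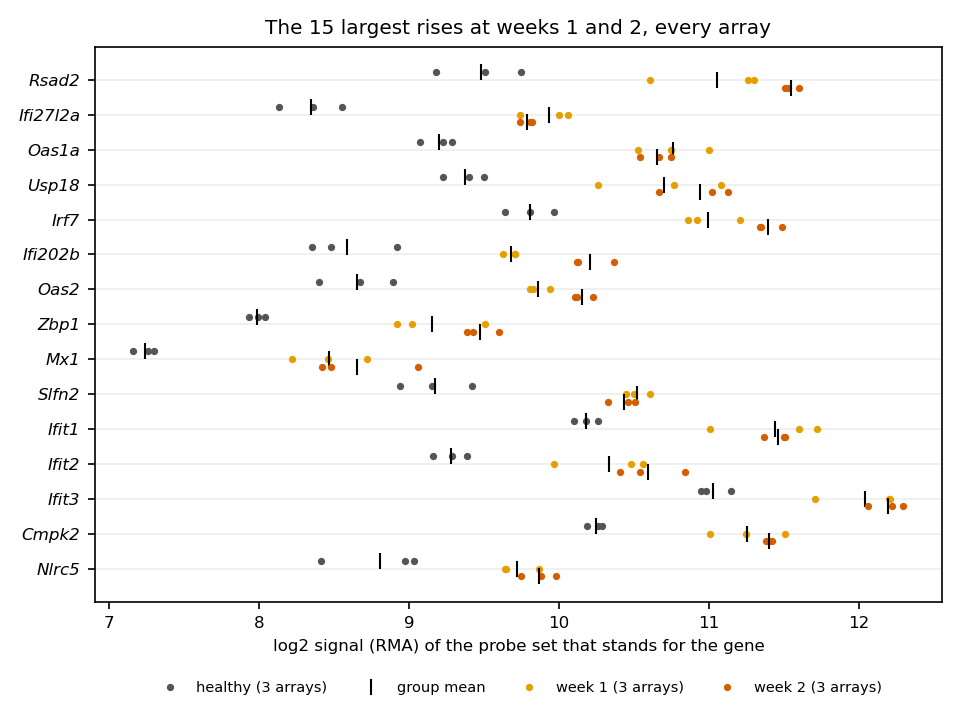
Every array is a point, with the log2 RMA signal on the horizontal axis and the 15 largest rises in order of fold change on the vertical axis, and a vertical tick marks the mean of each group of 3 arrays. In each of the 15 genes the week 1 and week 2 points lie to the right of all control points, from Rsad2 (log2 fold change of 1.82) to Nlrc5 (0.99).

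On the list of interferon regulators and RNA or DNA sensors, 1 gene rose and 0 fell (0.137% and 0.605% of all genes). Usp18 and Zbp1, described above, were counted among the effectors. Irf7, the factor that amplifies type I interferon production, had log2 signals of 9.81, 9.64 and 9.97 in control and of 10.86 to 11.49 (median 11.27) in early ECs, and rose 2.62-fold (log2 fold change of 1.39, SE 0.15, adjusted p = 0.00753 by limma). The other 24 of 25 regulators and sensors did not pass, and the median of the list was 0.03. In 4 of the 25, all early arrays lay above all controls (3.35% of all genes). Dhx58, a helicase related to RIG-I, had a log2 fold change of 0.75 (adjusted p = 0.0722 by limma) and Irf9, an interferon regulatory factor, of 0.47 (adjusted p = 0.194 by limma), both with early arrays above all controls. The receptor chains Ifnar1 (0.08), Ifnar2 (0.02), Ifngr1 (-0.10) and Ifngr2 (0.05), the kinases Jak1 (-0.03) and Tyk2 (0.05) and the factor Irf1 (-0.11) were near 0.

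Antigen presentation genes rose in 1 of 21 and fell in 0 (0.137% and 0.605% of all genes). At an unadjusted p below 0.05 by limma, 8 were higher and 2 lower. All early arrays lay above all controls in 8 of them and below in 1 (3.35% and 2.92% of all genes). The risen gene was Nlrc5, the transactivator of MHC class I genes, with log2 signals of 9.03, 8.97 and 8.41 in control and 9.64 to 9.98 (median 9.81) in early ECs (log2 fold change of 0.99, SE 0.14, adjusted p = 0.0183 by limma). Class I genes themselves had small log2 fold changes that did not pass, 0.22 for H2-K1, 0.14 for H2-D1 and 0.16 for B2m. H2-D4 and H2-Q5, which were not on the list and are named because they passed, rose by 0.80 and 0.71. Class II genes had negative values that did not pass, with Cd74, the invariant chain, at -0.77 (adjusted p = 0.122 by limma) and H2-Aa at -0.34. Cd274, which encodes the checkpoint ligand PD-L1, had a log2 fold change of 0.76 (adjusted p = 0.141 by limma). Among 9 guanylate-binding and immunity-related GTPases, which attack membranes of intracellular pathogens, Igtp rose by 0.58 (adjusted p = 0.0318 by limma). It was the only gene of the list to rise (0.137% of all genes) and 8 did not pass, with all 9 values above 0 and a median of 0.44.

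A further 5 risen genes belong to other groups or to none of the lists. Col15a1, a basement membrane collagen of capillaries, had log2 signals of 9.55, 9.67 and 9.75 in control and 10.20 to 10.42 (median 10.25) in early ECs (log2 fold change of 0.62, SE 0.09, adjusted p = 0.0174 by limma). Ifi202b, an interferon-inducible member of the family of DNA sensors with a HIN domain, rose by 1.36. Named after their values were seen, Gm4951, which the annotation gives as a predicted gene, rose by 0.97, Disp2 by 0.65 and Gm9706 by 0.64.

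Genes of fibroblasts were mostly below control in early ECs, with 15 of 15 log2 fold changes below 0 and 11 genes in which all early arrays lay under all controls (2.92% of all genes). Of the 15 fibroblast markers measured, 7 fell and 0 rose (0.605% and 0.137% of all genes). The other 8 did not pass, and the median log2 fold change was -0.96. The mean log2 signal of the list was 11 to 11.11 in control and 9.90 to 10.41 in early arrays. In sorted bulk samples, fewer cells of a type and less RNA per cell cannot be told apart. Pdgfra, which encodes CD140a, an antigen the sort excludes, had log2 signals of 11.93, 11.99 and 11.82 in control and of 9.87 to 10.78 (median 10.42) in early ECs, so its transcript was measured in the sorted cells of every group. It was 2.92-fold lower (log2 fold change of -1.55, SE 0.20, adjusted p = 0.0109 by limma). Dpt (dermatopontin, a matrix protein), Tcf21 (a factor of lung lipofibroblasts) and Npnt (a ligand of integrin α8β1) fell as well, with log2 fold changes of -1.14, -1.08 and -1.02. Dcn (-0.96), Col3a1 (-0.56) and Inmt (-0.49) had early arrays below all controls without passing the test. Without control replicate 1, 2 of the 15 fell, and without control replicates 2 and 3, 0 and 4.

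Of the 15 largest falls, 11 were of genes on none of the 44 lists. Dpep1, a membrane dipeptidase that also binds neutrophils in lung vessels, had log2 signals of 11.18, 11.11 and 10.73 in control and 8.95 to 9.69 (median 9.12) in early ECs, and was 3.40-fold lower (log2 fold change of -1.77, SE 0.18, adjusted p = 0.00601 by limma). Itga8, the integrin α8 chain of mesenchymal cells, had log2 signals of 11.24, 11.04 and 11.15 in control and 8.91 to 10.05 (median 9.50) in early ECs and fell by 1.64 on the log2 scale. Crispld2, a secreted protein of lung mesenchyme, fell by 1.56, and Hsd11b1, which regenerates active glucocorticoid, by 1.49. Fgfr4, a fibroblast growth factor receptor, fell by 1.75, Gria1, a glutamate receptor subunit, by 1.74, Scn3a, a sodium channel, by 1.68, and Abca8a, a lipid transporter, by 1.66. Ear3, an eosinophil-associated ribonuclease, fell by 1.63, and Ms4a4d, a tetraspan membrane protein, by 1.54. Tbx4, a factor of lung mesenchyme, fell by 1.29, Pid1, which dampens insulin signaling, by 1.38, and Axl, a receptor kinase for GAS6, by 0.95.

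**Figure D3:**
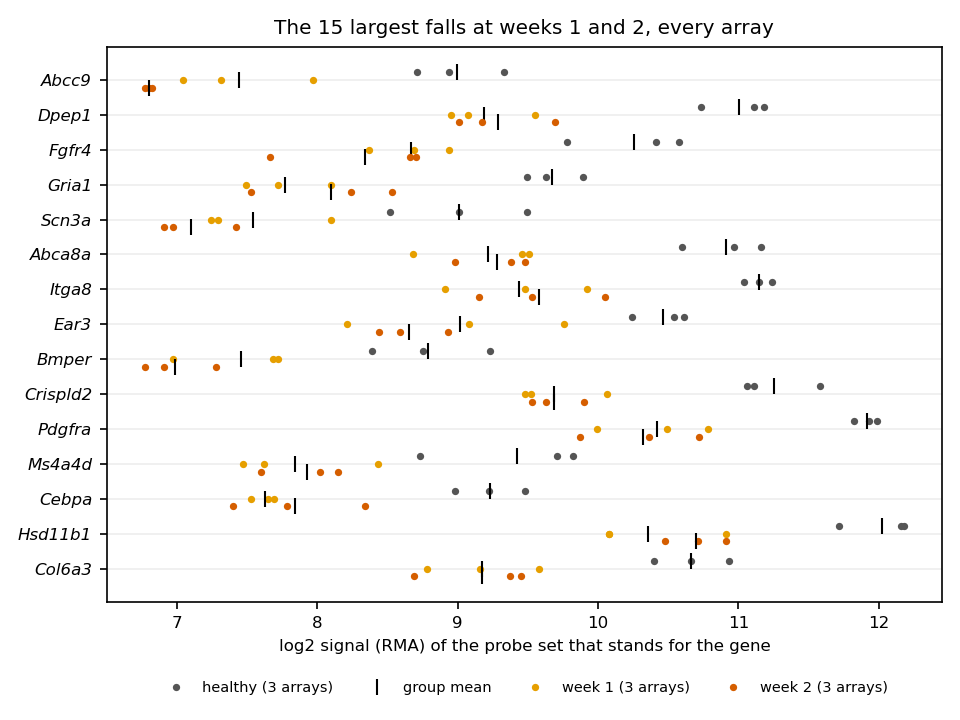
Every array is a point, with the log2 RMA signal on the horizontal axis and the 15 largest falls in order of fold change on the vertical axis, and a vertical tick marks the mean of each group of 3 arrays. In each gene all week 1 and week 2 points lie to the left of the control points, from Abcc9 (log2 fold change of -1.88) to Col6a3 (-1.49), with Ms4a4d and Scn3a showing the closest groups.

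Mural cells are the pericytes and smooth muscle cells around vessels, and their marker Abcc9 had the largest fall among the genes past the test. Of 14 mural markers, 3 fell (0.605% of all genes), 0 rose and 11 did not pass, with a median of -0.51. All early arrays lay below all controls in 8 of them (2.92% of all genes). The mean log2 signal of the list was 9.29 to 9.43 in control and 8.52 to 8.75 in early arrays. Abcc9, the regulatory subunit of the KATP channel of pericytes, had log2 signals of 9.33, 8.94 and 8.71 in control, 7.31, 7.04 and 7.97 at week 1, and 6.82, 6.80 and 6.77 at week 2. It was 3.67-fold lower over both weeks (log2 fold change of -1.88, SE 0.26, adjusted p = 0.0146 by limma). Acta2, smooth muscle actin, had log2 signals of 11.19, 11.43 and 11.31 in control and of 9.65 to 10.28 (median 9.95) in early ECs, and fell by 1.36 ± 0.14 (SE; adjusted p = 0.00601 by limma). Pdgfrb, which encodes CD140b, another antigen left out by the sort, fell by 1.40 (SE 0.26, adjusted p = 0.0461 by limma). Kcnj8, the channel subunit that pairs with Abcc9, had a log2 fold change of -1.13 with no overlap of the groups, and Rgs5 (-0.03) and Notch3 (-0.21) were near 0. The contractile genes Tpm2, a tropomyosin, and Myl9, a myosin light chain, which was named after its value was seen, fell by 1.21 and 1.11. Without control replicate 1 or control replicate 2, 1 of the 14 mural markers fell.

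Matrix genes divided by chain. Of 42 collagen chains read by symbol, a family chosen after values were seen, 6 fell and 1 rose (0.605% and 0.137% of all genes). The median was -0.16, and all early arrays lay below all controls in 13 chains and above in 2 (2.92% and 3.35% of all genes). The fallen chains were Col6a3 (-1.49), Col4a5 (-1.32), Col6a2 (-1.25), Col4a4 (-1.10), Col1a1 (-1.05) and Col6a1 (-1.03), which together include every subunit of the main collagen VI heterotrimer. Col6a1 had log2 signals of 11.72, 11.81 and 11.54 in control and of 10.34 to 10.86 (median 10.73) in early ECs. Col4a1 (0.03) and Col4a2 (0.04), the basement membrane chains made by most ECs, were near 0. Of 30 genes of basement membrane and matrix, Col15a1 rose, Col4a4 and Fn1 (fibronectin, -0.66) fell and 27 did not pass. Mgp, matrix Gla protein, fell by 0.59 (adjusted p = 0.0339 by limma) as 1 of 11 arterial markers, and the other 10 did not pass.

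Epithelial transcripts gave few calls. Of 10 markers of alveolar type 2 cells, which make surfactant, 1 fell and 0 rose (0.605% and 0.137% of all genes), and the median was -1.07. The fallen gene was Cebpa, a factor of type 2 cells and of lipid-storing cells, with log2 signals of 8.98, 9.48 and 9.22 in control and 7.40 to 8.34 (median 7.67) in early ECs (log2 fold change of -1.50, SE 0.19, adjusted p = 0.0109 by limma). Slc34a2, a phosphate transporter (-1.78, adjusted p = 0.0899 by limma), and Sftpc, surfactant protein C (-0.69, adjusted p = 0.245 by limma), did not pass. The mean log2 signal of this list was 10.84 to 10.98 in control and 9.46 to 10.66 in early arrays. None of 8 type 1 markers passed limma's test (4 lower and 0 higher at an unadjusted p below 0.05), with a median of -0.50 and Ager at -1.19 (adjusted p = 0.076 by limma). Of 14 airway markers, 0 passed limma's test (1 higher and 4 lower at an unadjusted p below 0.05), the median was -0.02, and 7 values were above 0, up to 0.79 for Scgb3a1. The lowest values were those of Scgb3a2 and Cyp2f2. Cyp2f2, a club cell oxygenase, had log2 signals of 9.03, 10.99 and 9.97 in control and 6.19 to 8.60 (median 7.71) in early ECs, a log2 fold change of -2.42 that did not pass (adjusted p = 0.0752 by limma). Scgb3a2, a club cell secretoglobin, had a log2 fold change of -2.49 (adjusted p = 0.223 by limma). Epcam, an antigen of the sort, was at 7.43 to 7.49 in control and 7.15 to 7.46 in early ECs (log2 fold change of -0.20, adjusted p = 0.573 by limma).

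Among leukocyte and platelet transcripts, 2 of the genes on these lists fell. Coro1a, which shapes the leukocyte cytoskeleton, fell by 0.74 (adjusted p = 0.0339 by limma). Of the 10 pan-leukocyte markers it alone fell (0.605% of all genes), and their median was -0.55. Ptprc (CD45) overlapped between the groups, at 8.21 to 9.46 in control and 7.58 to 9.07 in early ECs (log2 fold change of -0.53, adjusted p = 0.663 by limma), and Itgam (CD11b) had a log2 fold change of -0.46 (adjusted p = 0.501 by limma). Cd68, a lysosomal protein of macrophages, fell by 0.85 (adjusted p = 0.0318 by limma). Of the 16 macrophage and monocyte markers it alone fell (0.605% of all genes), 5 had values above 0, and the median was -0.17. Of 12 platelet markers, 0 passed limma's test (5 lower and 0 higher at an unadjusted p below 0.05), and the median was -0.47. The mean log2 signals of the pan-leukocyte list were 8.62 to 9.04 in control and 7.94 to 8.66 in early arrays, and those of the platelet list 8.81 to 9.05 and 8.06 to 8.75. Lymphocyte, neutrophil, erythroid and mast cell lists had medians from 0.02 to 0.13 with 0 of 35 markers past the test (1 higher and 1 lower at an unadjusted p below 0.05). The mean log2 signals of the lymphocyte, neutrophil and mast cell lists were at most 7.75, 7.72 and 7.18. These lay below the array medians of 8.12 to 8.13, so a fall could hardly have been seen, and the strain lacks mature lymphocytes. The mean levels of the fibroblast, mural, alveolar type 1, alveolar type 2 and platelet lists lay below all controls in all 6 early arrays, which are also those with higher interferon-stimulated effectors, whereas the pan-leukocyte, macrophage and airway lists overlapped between the groups. The part of these cell types in the other results was not tested.

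**Figure D4:**
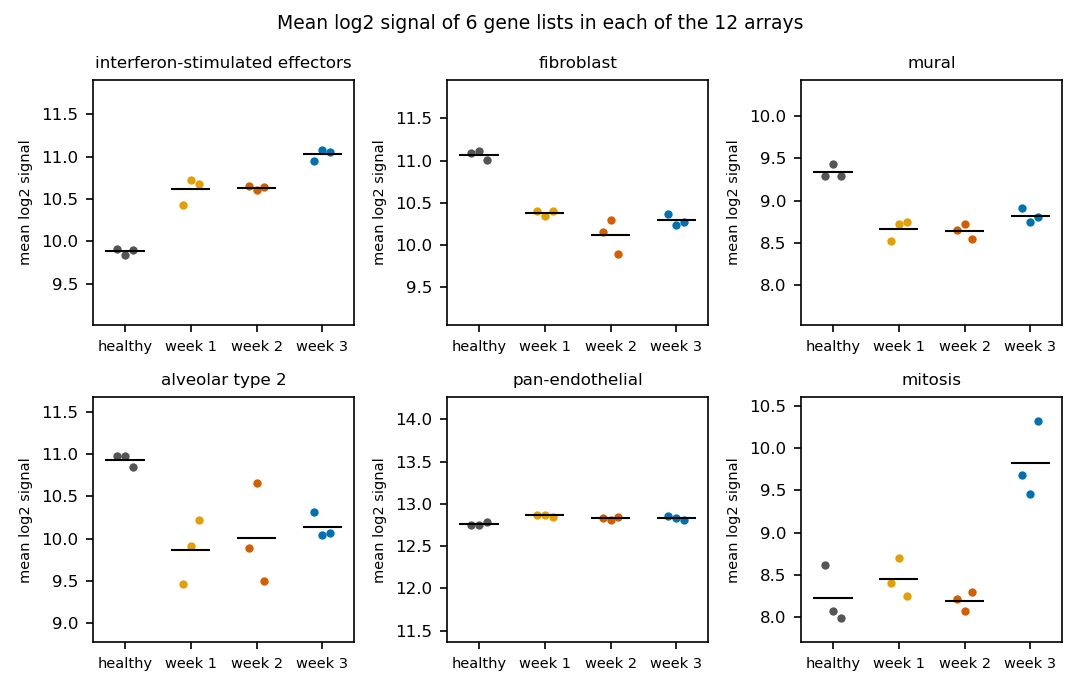
Each point is the mean log2 signal over the members of a list in 1 of the 12 arrays, and the horizontal line is the mean of 3 arrays, with every panel spanning the same range of log2 units. Interferon-stimulated effectors are higher and fibroblast and mural markers lower in all week 1 and week 2 arrays than in healthy arrays, pan-endothelial genes stay between 12.75 and 12.87, and mitosis genes are high at week 3.

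Genes of retinoid, xenobiotic and lipid handling gave 5 falls. Aldh1a1, which makes retinoic acid, had log2 signals of 12.04, 11.86 and 11.59 in control and 9.99 to 10.82 (median 10.36) in early ECs, and fell by 1.44 (SE 0.21, adjusted p = 0.0196 by limma). Gsta3, a glutathione transferase, and Rarres2, which encodes the chemoattractant chemerin, fell by 1.30 and 0.63. Of the 28 genes of the retinoid and xenobiotic list, 3 thus fell and 0 rose (0.605% and 0.137% of all genes). G0s2, which inhibits the lipase ATGL, had log2 signals of 10.19, 10.30 and 10.29 in control and 8.81 to 9.46 (median 9.04) in early ECs, and fell by 1.22. With Cebpa, 2 of 23 genes of fatty acid and lipid handling fell (0.605% of all genes). Among 17 complement and coagulation genes, 2 fell (0.605% of all genes). C1s1, a protease of the C1 complex, fell by 1.04, and Serping1, its inhibitor, by 0.73. Adm, which encodes the vasodilator adrenomedullin and is on the lists of angiogenesis and hypoxia, had log2 signals of 10.24, 10.36 and 10.03 in control and 8.75 to 9.44 (median 9.08) in early ECs, and fell by 1.12 (SE 0.16, adjusted p = 0.0147 by limma). Bmper, a secreted regulator of BMP signaling in vessels, fell by 1.57 (adjusted p = 0.0258 by limma) and was the only gene of 29 of the TGF-β and BMP list to pass.

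Many endothelial programs did not move past the test. Of 31 genes of DNA replication and 37 of mitosis, 0 passed limma's test (1 and 2 higher and 0 and 1 lower at an unadjusted p below 0.05), with medians of 0.10 and 0.06. Melk, a mitotic kinase, was the farthest above control at 0.93 (adjusted p = 0.0797 by limma). In the same way, 0 of 25 TNF and NF-κB response genes passed (0 higher and 1 lower at an unadjusted p below 0.05), with a median of -0.07 and Il6 at -0.76 (adjusted p = 0.559 by limma). Apart from Adm, the 33 genes of tip cells and angiogenesis did not pass, with Tek, the angiopoietin receptor, at 0.49 (adjusted p = 0.197 by limma). Kdr, which encodes VEGFR2, had log2 signals of 13.35, 13.32 and 13.38 in control and 13.26 to 13.38 (median 13.32) in early ECs. Of 22 junction genes, 15 Notch genes, 10 general capillary, 8 aerocyte, 10 venous and 8 lymphatic markers, 0 passed (3 higher and 3 lower at an unadjusted p below 0.05). Dissociation-induced immediate-early genes, of which 0 of 26 passed (0 higher and 6 lower at an unadjusted p below 0.05), had a median of -0.12. The clock repressors Nr1d1 and Nr1d2 had log2 fold changes of 1.34 (adjusted p = 0.196 by limma) and 0.83 (adjusted p = 0.182 by limma). Nr1d1 varied widely within groups, at 9.34, 9.78 and 10.46 in control and at 10.36 to 11.90 (median 11.31) in early ECs.

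**Figure D5:**
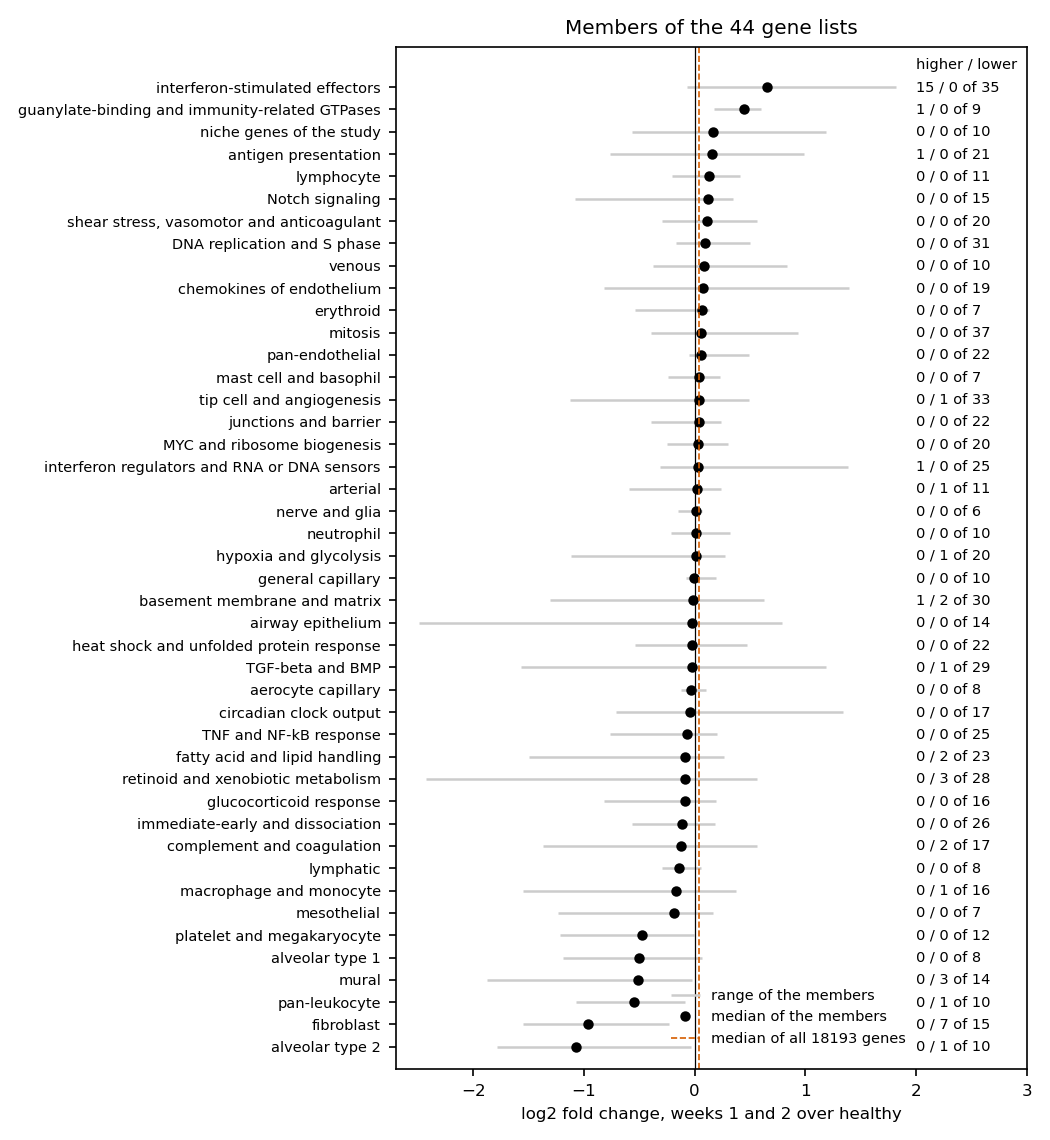
For each of 44 gene lists, the point is the median and the grey line the range of the members' log2 fold changes (weeks 1 and 2 over healthy), and the numbers at the right count members past the test upward and downward and all measured members. Interferon-stimulated effectors lead at a median of 0.65 with 15 of 35 risen, fibroblast and alveolar type 2 markers lie lowest at -0.96 and -1.07, and the dashed line marks the median of all genes at 0.04.

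Genes that the study followed around the vascular niche did not pass over both weeks. The paper names Inhbb, Lama1, Scgb3a1 and Opg (Tnfrsf11b) as niche factors of ECs, and reports its secreted factors as induced mainly at week 3. In its model, TNC made by cancer cells activates macrophages through TLR4, and the macrophages then act on ECs. The sort excluded both of these cell types, and the arrays are of the mouse genome. The Tnc and Tlr4 values below are therefore those of the sorted ECs and are no test of that step. Of 10 measured genes on the list, which holds Tnc beside niche factors, 0 passed the pooled test by limma (3 higher and 1 lower at an unadjusted p below 0.05). The mean log2 signal of the list was 9.35 to 9.50 in control and 9.51 to 9.94 in early arrays, which did not overlap. At week 3 it was 10.38 to 10.54, where 5 of the 10 genes were higher than in early ECs and 0 lower (2.13% and 1.06% of all genes). A missed threshold over both weeks is thus no sign that these genes were unchanged. Inhbb, which encodes the activin B subunit, had log2 signals of 9.81, 10.03 and 9.47 in control, 10.64, 10.75 and 10.03 at week 1, and 11.12, 11.78 and 11.46 at week 2, and the pooled log2 fold change was 1.19 (SE 0.33, adjusted p = 0.206 by limma). Lama1, a laminin chain, had 8.05, 8.27 and 8.19 in control, 8.48, 8.78 and 8.12 at week 1, and 8.98, 9.05 and 9.36 at week 2 (pooled log2 fold change of 0.63, adjusted p = 0.388 by limma). Scgb3a1, a secretoglobin, had a pooled log2 fold change of 0.79 (adjusted p = 0.324 by limma), Tnfrsf11b, the decoy receptor osteoprotegerin, of 0.09, Tlr4 of 0.21, and Tnc, the matrix protein tenascin C, of -0.56 (adjusted p = 0.229 by limma). In Inhbb and Lama1, the lowest early array was replicate 3 of week 1, which in Inhbb equalled the highest control and in Lama1 lay among the controls.

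Pooling assumes that both weeks are alike, and the 2 weeks were therefore compared. No gene passed the test of week 2 against week 1 in limma (0%), where the smallest adjusted p was 0.183 and 1192 genes had an unadjusted p below 0.05. Among the 135 genes of the pooled comparison, the median size of the difference between the weeks was 0.14 on the log2 scale, and 13 had an unadjusted p below 0.05. The pooled fit counts a difference between the weeks as spread, so genes whose weeks differ pass less easily. The small median of the called genes is in part set by that selection and is no test of the pooling. The 5 with the largest differences were Abcc9 (week 2 minus week 1, -0.64, SE 0.23), Pid1 (-0.58, 0.19), Pdgfrb (0.56, 0.28), Tbx4 (0.54, 0.21) and Ifi202b (0.52, 0.12). Week 2 was lower in Abcc9 and Pid1 and higher in the other 3. Ifi202b had 9.63, 9.71 and 9.71 at week 1 and 10.13, 10.37 and 10.12 at week 2. The chemokine Cxcl10, a ligand of CXCR3, had 8.34, 7.94 and 8.10 in control, 8.09, 9.31 and 9.12 at week 1, and 10.39, 10.03 and 10.17 at week 2. The difference between the weeks in Cxcl10 was 1.35 (SE 0.31, adjusted p = 0.374 by limma), and pooling gave a log2 fold change of 1.39 with a SE of 0.43 (adjusted p = 0.272 by limma). Cxcl9, another ligand of CXCR3, had a pooled value of 1.16 (adjusted p = 0.237 by limma). Week 2 minus week 1 was 0.93 (SE 0.15) in the platelet gene Pf4 and 1.31 (SE 0.22) in Tubb1, each with an adjusted p of 0.271 by limma. Pf4 had 10.05, 10.40 and 9.99 in control, 8.32, 8.85 and 8.54 at week 1, and 9.51, 9.47 and 9.53 at week 2.

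Taken alone against the same 3 control arrays, week 1 had 2 risen (0.011%) and 7 fallen genes (0.0385%), and week 2 had 19 (0.104%) and 25 (0.137%). The comparisons share their controls, so their values are given side by side. The 5 genes with the lowest p among those that passed only in the pooled test were chosen by that rule. Tpm2 had log2 fold changes of -1.19 (SE 0.20) at week 1, -1.24 (SE 0.18) at week 2 and -1.21 (SE 0.14) over both weeks. For Axl they were -1.01, -0.89 and -0.95, for Cdc42bpg, a kinase that acts on the cytoskeleton, -1.03, -0.99 and -1.01, and for Col6a1 -0.999, -1.05 and -1.03. For Mx1 they were 1.23 (adjusted p = 0.0529), 1.42 (adjusted p = 0.0517) and 1.32 (adjusted p = 0.00917 by limma). In each of these genes both weeks were on the same side of control, as in every called gene, which the selection favours. The pooled standard error was at or below that of either week, apart from Mx1, where it was 0.16 beside 0.15 at week 1. A choice by lowest pooled p favours small pooled errors, so these genes do not measure what pooling gains.

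Week 3 was set against the early arrays to show where the early state differs. At week 3, 387 genes were higher (2.13%) and 193 lower (1.06%) than in early ECs. The mitosis list had 31 of 37 genes higher and 0 lower (median 1.61), and the replication list 19 of 31 higher and 0 lower. Of the interferon-stimulated effectors, 8 of 35 were higher still and 0 lower, with a median of 0.29. Mx1 was higher by 1.32 (SE 0.17, adjusted p = 0.0042 by limma) and Rsad2 by 0.89 (adjusted p = 0.0386 by limma), whereas Slfn2 (0.25, adjusted p = 0.273 by limma) and Cmpk2 (0.26, adjusted p = 0.358 by limma) did not pass. Of the 110 fallen genes, 13 were higher and 7 lower at week 3 than early. Fallen genes were picked for low values in the same early arrays, which favours a higher week 3. Of the matrix genes that had fallen early, Fn1 and Col1a1 were higher at week 3. Fn1 was at 10.61 to 11.06 in early ECs and at a mean of 12.15 at week 3 (difference of 1.30, SE 0.13, adjusted p = 0.00141 by limma), Col1a1 was higher by 1.23 (adjusted p = 0.00172 by limma) and Acta2, a mural marker, by 0.93 (adjusted p = 0.00861 by limma). The other fallen collagen chains did not pass, at 0.82 for Col6a3, 0.59 for Col6a2, 0.47 for Col6a1, 0.02 for Col4a5 and -0.40 for Col4a4. Col15a1 rose again by 1.31 (SE 0.10, adjusted p = 0.000435 by limma). Pdgfra (-0.70, adjusted p = 0.176 by limma) and the fibroblast list, of which 2 genes were higher and 1 lower (median -0.04), showed no common direction. Gria1 and Gsta3 were lower still at week 3, by 1.07 and 1.35 on the log2 scale (adjusted p = 0.039 and 0.015 by limma).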

How the data were processed

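The 9 arrays compared are those labelled healthy (3), week 1 (3) and week 2 (3), and week 3 (3) served as a further comparison. The deposited values are log2 signals per probe set, which the authors made from CEL files by robust multiarray average in Chipster. Quantile normalization in that step makes the array distributions nearly equal (array medians 8.12 to 8.13), so a change shared by most genes cannot be seen. The values were used as deposited: 64 array controls of 45101 probe sets were set aside and 45037 were tested, of which 34945 carry 1 gene symbol in GEO's platform annotation, 932 several and 9160 none. Genes with several probe sets (9010 of 18193) were read from the probe set of highest mean. Of the 135 genes called, 71 have several probe sets, 11 have another of opposite sign, and 0 have an opposite one past the threshold. Another 38 genes passed only by a probe set not used here.

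Groups were compared 2 at a time by limma 3.58.1 in R 4.3.3 (lmFit and eBayes, Benjamini-Hochberg over 45037 probe sets, adjusted p below 0.05), the kind of test the methods of the study name. Adjusted p-values are from limma throughout. The 44 lists hold 820 entries, of which 767 were measured, and were described by counts and medians only. The comparison and the lists were chosen with earlier results of these data known. Named genes are the 15 largest rises and falls without overlap, and up to 4 members per list past the threshold (or 2 where none passed). They also include genes of the sort and genes the study follows. The last are the 5 called genes with the largest difference between the weeks, and the 5 of lowest p called in neither week alone. Other steps ran in Python 3.11.15. Alternatives were other samples in the fit, a replicate block, each array left out, 2 renormalizations, 2 probe set filters, gene means, 2 variance models and adjustment over 1 probe set per gene. The number of arrays limits the precision.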

Additional observations from a re-analysis of the deposited data

Results flagged for a closer look

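In each of the 118 genes named by the rule, the 6 early arrays were searched for 1 array far from the other 5, by the gap to its nearest neighbour over the whole range (Dixon's test at its 95% critical value, which chance passes in about 1 of 20 groups). In 5 genes such an array was found. In Rsad2 the lowest array, replicate 1 of week 1, had a log2 signal of 10.61 and the other 5 lay at 11.26 to 11.60. The same array was lowest in Igtp, at 11.41 with the others at 11.62 to 11.74. In Col15a1, replicate 2 of week 1 was highest at 10.42, above 10.20 to 10.27. Bnc1, a mesothelial marker that did not pass the pooled test, was at 6.60 in replicate 3 of week 1 and at 5.96 to 6.10 in the other 5, and Gjc1, a connexin that did not pass either, at 10.61 in replicate 3 of week 2 and at 10.08 to 10.24 elsewhere.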

How the results depend on the processing

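The count of risen genes was 25 and that of fallen genes 110, and both stayed within 1.5 times except as follows. With gene means of all probe sets they were 38 and 178. A fit over all 4 groups gave 166 fallen genes, and trended, robust variances gave 171. Leaving out an array gave 6 to 28 risen and 7 to 136 fallen genes, 5 to 16 risen interferon-stimulated effectors (15 with all arrays), 0 to 7 fallen fibroblast markers and 1 to 3 fallen mural markers. The mural count of 3 became 5 with gene means, with probe sets above the median, with the trended and robust variance, and with adjustment over 1 probe set per gene.

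The replicate numbers do not pair the arrays: deviations of same-numbered arrays from their group means correlated by -0.104 to 0.065 over 9 pairs, and 2 of 9 correlated best with their own number. With the numbers as a replicate block, 14 genes rose and 50 fell in the pooled test, 0 passed at week 1, 0 at week 2, and 96 were lower at week 3 than early.

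Week 1 alone had 9 genes past the threshold, and 169 with all 4 groups in one fit, 57 with array weights, 168 above the median filter, 188 with the trended and robust variance, and 0 to 6 without an array. For week 2 alone (44) these were 106, 100 and 115 for the fit of 4 groups, the filter and the trended variance, and 0 to 26 without an array. Week 2 against week 1 gave 1 gene with all groups in one fit, 5 with the trended variance, and 0 to 0 without an array. For week 3 against early ECs, 193 genes were lower, and 352 with all groups, 299 with array weights, 318 with the filter and 426 with the trended variance. Without an array, 147 to 425 were higher and 44 to 241 lower.

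Of the 118 named genes, 55 passed in the pooled test. Over the alternatives these kept their direction in all 1092 refits, which was certain where an array was left out, since their groups did not overlap. They lost the call in 211, of which 46 were without control replicate 2 and 43 without control replicate 1. The 63 named genes that did not pass became significant in 30 of 1238. The list medians moved by more than the spread of the early arrays in 14 of 528. With 9 arrays, changes below 0.58 on the log2 scale did not pass, and the cause of the changes in count was not tested.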
